A study of Mus musculus with 36 samples.

Results

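Lung macrophages of adult mice raised without microbes were compared between Scnn1b-Tg mice and their wild-type (WT) counterparts. The comparison holds 6 of the 36 arrays of the series, 3 of germ-free (GF) Tg mice and 3 of GF WT mice, chosen by their sample titles and not by any measured value. All 6 mice were at postnatal day (PND) 42, and all were C57Bl/6N Tac animals kept in germ-free housing, so the groups differed in genotype alone as far as the labels state. The Tg mice carry an Scnn1b transgene, which encodes the β subunit of the epithelial sodium channel, under the promoter of the club cell secretory protein, so that the transgene is driven in airway club cells and not in the macrophages that were assayed. WT mice carry no transgene. The 8 PND 42 mice from specific pathogen-free (SPF) housing, 4 Tg and 4 WT, served as a second setting for the same genotype difference. Each PND 42 array held the cells of 1 mouse, obtained by lung lavage and depleted of granulocytes with anti-Ly-6G beads.

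Overexpression of the sodium channel draws water from the airway surface, and the mucus that remains is cleared poorly. Alveolar macrophages are the resident phagocytes of the air spaces: they take up surfactant lipid, particles and dead cells, and they set the tone of local inflammation. In textbook accounts, interleukin-4 and interleukin-13 drive an alternatively activated (M2) state marked by arginase 1 and resistin-like proteins, while interferon-γ and bacterial products drive a classically activated (M1) state marked by inducible nitric oxide synthase and tumor necrosis factor. The GF mice allow the question of what the genotype changes in these cells when no live bacteria are present.

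Values are log2 signals after normalization, 1 per feature (a probe group on the array), and a difference of 1 on this scale is a 2-fold change. The medians of the 36 arrays reached 4.06, and a group mean at or below that level is called near background, where a difference can understate the fold. A feature was called where the limma contrast of Tg minus WT gave a Benjamini-Hochberg adjusted p of 0.05 or less and at least a 2-fold change, and for a single gene "rose" and "fell" are used from the adjusted p alone. Standard errors (SE) come from the same fit.

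The GF mice were not of a uniform kind within each genotype. Xist, the RNA that coats the inactive X chromosome of female cells, read 9.14, 9.35 and 3.15 in the GF Tg mice and 9.62, 9.54 and 3.45 in the GF WT mice, and the Y-linked gene Eif2s3y read 3.01, 3.20 and 7.82 in the GF Tg mice and 3.09, 3.30 and 7.84 in the GF WT mice. Mouse 3 of each genotype thus had the male pattern and mice 1 and 2 the female pattern, although the methods of the study describe male mice, and all 8 SPF mice had the male pattern. The split is the same in both genotypes, so a term for the Xist level could move the genotype difference little. With that term in the fit 652 features were called in place of 650. Whether the genotype difference depends on sex was not tested by it. Tg mouse 3 also stood farthest from the WT mice, with correlations to them of 0.965 to 0.968 against 0.977 to 0.982 for the other two Tg mice, so that the largest changes and the only male Tg pattern fall in 1 mouse and cannot be told apart. Scnn1b itself read 3.47, 3.99 and 4.18 in Tg and 3.30, 3.11 and 3.21 in WT cells, near background in both, with a difference of 0.68 (SE 0.68) that did not pass (adjusted p = 0.785). It passed with the 14 PND 42 arrays alone (adjusted p = 0.0229) and without the PND 0 arrays (0.0368).

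The labelled cell type was borne out by its markers. Of 28 alveolar macrophage markers, 26 were measured, and none was near background in all 6 arrays. Their mean was 9.82, 9.73 and 9.51 in the Tg mice and 9.81, 9.81 and 9.90 in the WT mice. Chil3, the chitinase-like protein Ym1 that these cells secrete in quantity, read 12.4, 12.4 and 12.5 in Tg and 12.3, 12.1 and 12.2 in WT mice, and Mrc1, the mannose receptor, read 11.0, 11.2 and 11.1 in Tg and 11.0, 11.0 and 11.0 in WT mice. Neither difference passed (Chil3 0.21, adjusted p = 0.824; Mrc1 0.06, adjusted p = 0.934), and both are often counted as M2 markers.

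Of the 28940 features tested, 650 were called between GF Tg and GF WT macrophages, or 2.25%. Transcripts gained outnumbered those lost: 535 features rose (1.85%) and 115 fell (0.397%). With the adjusted p alone, 910 rose (3.14%) and 512 fell (1.77%). The gains also ran deeper, with 28 features rising 16-fold or more and 169 rising 4-fold or more, against 10 that fell 4-fold or more. In 249 of the 535 rises the WT mean was near background. Every Tg array lay above every WT array in 526 of the 535 rises, and every Tg array lay below every WT array in 114 of the 115 falls. The calls were made on these same arrays, so such separation follows largely from the call and is no separate support for it. Over all features, 9.21% showed such separation upward and 12.1% downward.

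**Figure D1:**
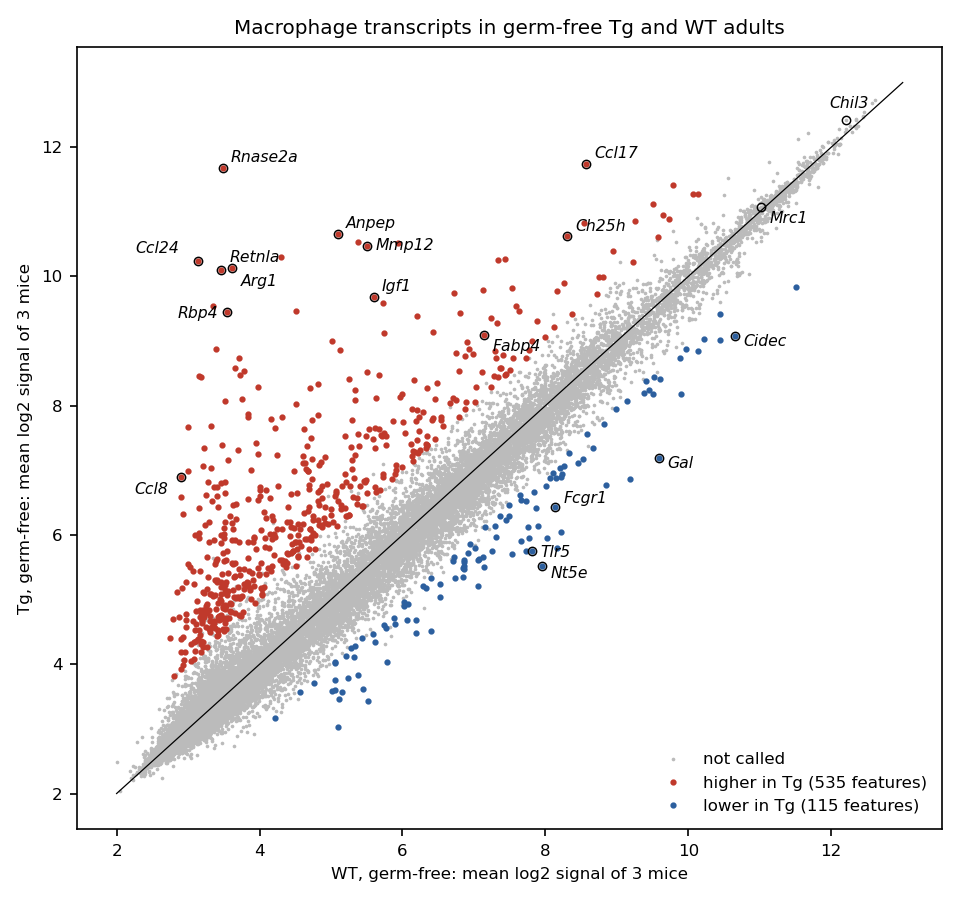
Mean log2 signal of each feature in 3 GF Tg mice (vertical axis) against its mean in 3 GF WT mice (horizontal axis), with features called higher in Tg in red, those called lower in blue, the rest in grey and the line of equality in black. The 535 rises spread far above the line, 249 of them from WT means near background, while the 115 falls lie close under it. Chil3 and Mrc1 sit on or near the line.

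The extent of the change differed among the Tg mice. Across the 535 called rises, the median gain over the WT mean was 1.33 in Tg mouse 1, 1.57 in Tg mouse 2 and 2.05 in Tg mouse 3, and Tg mouse 3 was the highest of the Tg mice in 441 of them (82.4%, against 29.2% of all features). Across the 115 called falls the medians were -0.866, -1.29 and -1.78. Set against the WT mouse of the same number, and so within the same Xist pattern, the median gain was 1.32, 1.57 and 2.12. Without Tg mouse 3, 423 features were called (363 rises and 60 falls). With mouse 3 of both genotypes left out, 374 were called (317 rises and 57 falls). Of the 650 calls, 433 kept the adjusted p in each of the 6 fits that left out 1 GF mouse (371 rises and 62 falls).

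The 20 genes with the largest rises gained between 4.56 and 8.19 on the log2 scale, and all 20 passed the adjusted p in each of those 6 fits. Tg mouse 3 was the highest of the Tg mice in all 20. Rnase2a, a ribonuclease of the eosinophil-associated family, read 11.7, 11.5 and 11.8 in the Tg mice and 3.46, 3.93 and 3.06 in the WT mice, a gain of 8.19 (SE 0.97, adjusted p = 1.1e-06). It was the largest of the rises, from a WT level near background. The ribonucleases of this family are near-identical copies, so probes may be shared among them, and the related Ear6 rose by 3.19 (SE 0.50, adjusted p = 7.93e-05). Ccl24, or eotaxin-2, a chemokine that draws eosinophils, read 10.6, 9.54 and 10.6 in Tg and 2.93, 3.40 and 3.07 in WT mice, a gain of 7.10 (SE 0.91, adjusted p = 3.85e-06).

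Others of these 20 encode enzymes, secreted proteins and surface proteins. Fbp1, which encodes the gluconeogenic enzyme fructose-1,6-bisphosphatase, rose by 6.19 (SE 0.79), and Awat1, an acyltransferase that makes wax esters, rose by 6.00 (SE 0.59). Rbp4, the carrier of retinol, read 8.93, 9.55 and 9.90 in Tg and 3.32, 3.61 and 3.72 in WT mice. The lowest Tg value of Rbp4 was thus more than 5 units above the highest WT value. Fstl1, a secreted follistatin-like protein, rose by 5.48 (SE 0.41), and Inhba, whose product forms activin A, rose by 5.31 (SE 0.57). Among the surface proteins, Anpep, or aminopeptidase N, read 10.3, 10.8 and 10.9 in Tg and 5.22, 5.11 and 4.95 in WT mice, and Itgam, the αM integrin chain that alveolar macrophages carry little of, read 7.79, 8.12 and 9.52 in Tg and 3.81, 3.46 and 3.91 in WT mice. Mfge8, which bridges dying cells to phagocytes, rose by 5.16 (SE 0.34), H2-M2, a nonclassical class I molecule, by 4.76 (SE 0.34) and Tm4sf19, a tetraspan membrane protein, by 4.93 (SE 0.58). Ocstamp, which takes part in the fusion of osteoclasts and giant cells, rose by 4.67 (SE 0.76). The adjusted p of the genes in this group, Fbp1 to Ocstamp, ranged from 6.65e-11 to 0.000119.

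**Figure D2:**
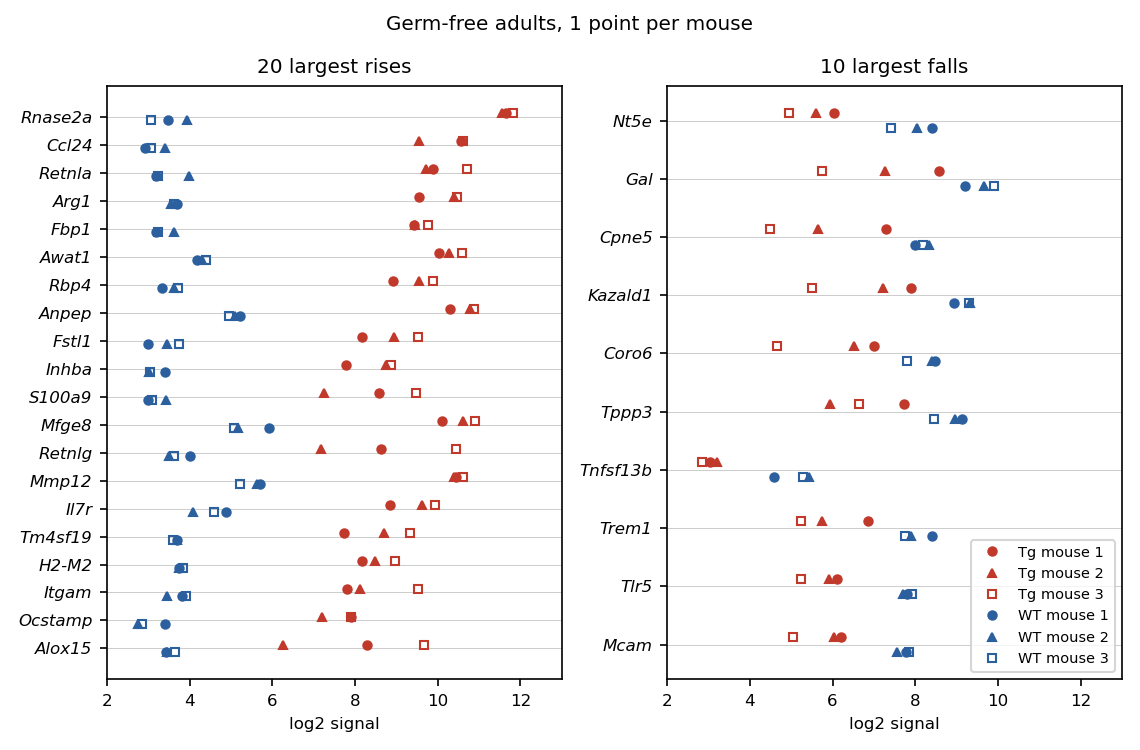
Log2 signal in each GF mouse (horizontal axis) of the 20 genes with the largest rises (left) and the 10 with the largest falls (right), with Tg mice in red above WT mice in blue, circles for mouse 1, triangles for mouse 2 and open squares for mouse 3. No Tg point overlaps a WT point, and the open red square lies farthest from the blue points in all 20 rises and in 9 of the 10 falls.

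Of 35 listed genes of alternative activation, all measured, 18 rose, 1 fell and 16 did not pass. Over all features 3.14% rose and 1.77% fell. The list had a median of 0.70 against -0.02 for all features, and 14 of the 18 rose in each of the fits that left out 1 mouse. Arg1, arginase 1, which turns arginine into ornithine, read 9.55, 10.4 and 10.5 in Tg and 3.69, 3.55 and 3.61 in WT mice, a gain of 6.52 (SE 0.74, adjusted p = 4.31e-07). Retnla, the resistin-like protein also called Fizz1, read 9.88, 9.72 and 10.7 in Tg and 3.19, 3.98 and 3.23 in WT mice, a gain of 6.64 (SE 0.84, adjusted p = 3.07e-06). Both were near background in WT cells and among the stronger signals in Tg cells. Igf1, an insulin-like growth factor of tissue repair, read 9.41, 9.69 and 9.93 in Tg and 5.18, 5.83 and 5.78 in WT mice (4.08, SE 0.40, adjusted p = 4.18e-08), and Ccl17, a chemokine for type 2 helper T cells, read 11.8, 11.6 and 11.7 in Tg and 8.74, 8.58 and 8.37 in WT mice (3.17, SE 0.72, adjusted p = 0.00598). The change was not uniform over the list. Trem2 (1.56), Chil4 (1.44), Msr1 (1.25) and Ccl22 (1.11) rose by less, Flt1, a receptor of vascular endothelial growth factor, fell by 0.98 (adjusted p = 0.0122), and Chil3 and Mrc1 did not pass. No gene of the list fell without Tg mouse 3 or without WT mouse 2. Chil3 and Chil4 are close copies whose signals may mix. Il13, the cytokine that induces this state, rose too, with 5.77, 6.80 and 7.67 in Tg and 3.39, 3.30 and 3.53 in WT mice (3.34, SE 0.47, adjusted p = 1.61e-05).

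Retnla and its neighbor Retnlg lie on chromosome 16 with promoters 29999 bases apart, and both rose. Retnlg, a resistin-like protein of granulocytes, read 8.62, 7.16 and 10.4 in Tg and 4.01, 3.5 and 3.63 in WT mice (5.02, SE 0.86, adjusted p = 0.000232). Their promoters are shown with that of Ccl17 because each holds the palindromic pattern of TTC, any 4 bases and GAA. It is an element that STAT6 of the interleukin-4 and interleukin-13 pathway binds. Sequences are the RefSeq windows of GRCm38.p6 from 250 bases before to 50 bases after the transcription start, 5′ to 3′ on the gene's strand (+ in each case), with the palindrome in capitals, at chr16:48842359-48842658 for Retnla, chr16:48872358-48872657 for Retnlg and chr8:94810203-94810502 for Ccl17.
Retnla: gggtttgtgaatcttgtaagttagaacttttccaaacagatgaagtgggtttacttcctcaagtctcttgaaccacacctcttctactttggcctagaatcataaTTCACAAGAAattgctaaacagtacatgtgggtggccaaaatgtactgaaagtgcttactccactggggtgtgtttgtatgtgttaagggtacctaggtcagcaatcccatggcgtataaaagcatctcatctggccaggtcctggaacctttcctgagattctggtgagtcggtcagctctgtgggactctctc
Retnlg: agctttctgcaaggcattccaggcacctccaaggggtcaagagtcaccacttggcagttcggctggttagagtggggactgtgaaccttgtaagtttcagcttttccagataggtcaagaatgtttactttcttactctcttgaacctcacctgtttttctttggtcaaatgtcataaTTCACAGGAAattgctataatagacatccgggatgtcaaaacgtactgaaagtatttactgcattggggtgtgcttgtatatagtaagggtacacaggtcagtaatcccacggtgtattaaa
Ccl17: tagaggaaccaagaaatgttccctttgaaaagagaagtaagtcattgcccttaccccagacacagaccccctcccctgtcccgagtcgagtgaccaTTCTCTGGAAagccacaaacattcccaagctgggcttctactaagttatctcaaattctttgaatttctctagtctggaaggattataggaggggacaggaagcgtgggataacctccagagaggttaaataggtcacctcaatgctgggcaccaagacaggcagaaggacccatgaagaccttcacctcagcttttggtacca
As a pattern with 4 free bases the palindrome reads the same on both strands. It occurs in 1899 of 27025 promoters of this kind, 1 per gene (7.03%). Of the 20 genes with the largest rises, 16 have such a promoter, and 3 of them, Awat1, Retnla and Retnlg, hold it. It was found once in each of the 3 promoters printed, beginning 145, 72 and 154 bases before the start in Retnla, Retnlg and Ccl17.

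Genes of classical activation gave a divided picture, where 3.14% of all features rose and 1.77% fell. Of 33 listed genes 30 were measured, 9 rose and 2 fell, with a median of 0.38, and 8 of the rises held in each of the fits without 1 mouse. Those that rose were mainly secreted signals, Ccl2, Ccl3 and Ccl4 among them: Il1b, interleukin-1β, read 8.26, 7.90 and 8.27 in Tg and 6.39, 5.77 and 5.72 in WT mice (2.18, SE 0.42, adjusted p = 0.000992), and Socs3, which dampens cytokine signaling, rose by 1.52 (SE 0.33, adjusted p = 0.00372). A second feature of Socs3 had a difference of 1.27 and did not pass (adjusted p = 0.0616). The hallmark effectors did not follow. Nos2, inducible nitric oxide synthase, read 3.44, 3.08 and 3.16 in Tg and 3.17, 3.22 and 3.12 in WT mice, near background throughout. Tnf read 6.79, 6.55 and 6.32 in Tg and 6.51, 6.41 and 6.85 in WT mice, and Il6 read 3.31, 3.66 and 4.51 in Tg and 3.5, 3.69 and 3.43 in WT mice. The groups overlapped in all 3 of these genes (adjusted p = 0.993, 0.991 and 0.845). Saa3, Lcn2, Marco and Clec4e likewise did not pass. Cd80, a costimulatory molecule, had a difference of 0.56 (adjusted p = 0.401, but 0.0392 with the 14 PND 42 arrays alone). Acod1, which makes itaconate, had a difference of 1.99 (adjusted p = 0.0584) and passed with the 14 PND 42 arrays (0.0208), the dim filter (0.0332), the trended robust prior (0.0494) and without WT mouse 1 (2.56, 0.0247). Fcgr1, the high-affinity receptor for immunoglobulin G and a listed M1 marker, fell by 1.71 (SE 0.32, adjusted p = 0.000662, and 0.0519 with the 6 GF arrays alone), and it alone of the list fell without Tg mouse 2 or 3 or without any 1 WT mouse.

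CC chemokines had the largest share of members that rose among the 24 process lists. Over all features 3.14% rose and 1.77% fell. Of 15 such genes, all measured, 10 rose and none fell, with a median of 2.67, and the same count held in each of the 6 fits without 1 mouse. The monocyte chemoattractants moved from near background: Ccl2 read 7.03, 7.65 and 7.48 in Tg and 3.58, 3.55 and 3.28 in WT mice (3.92, SE 0.57, adjusted p = 2.6e-05), and Ccl7 read 6.67, 7.16 and 7.30 in Tg and 3.60, 3.27 and 3.11 in WT mice (3.72, SE 0.49, adjusted p = 6.52e-06). Ccl3 and Ccl4, which draw monocytes and T cells, rose by 2.67 (SE 0.33) and 2.48 (SE 0.38). Tg values of all 4 lay above all WT values. Ccl11, eotaxin-1, was near background in both genotypes (-0.07, adjusted p = 0.949). Of 14 CXC chemokines 4 rose and none fell: the neutrophil chemoattractants Cxcl2 (2.19, SE 0.41) and Cxcl3 (2.75, SE 0.57), Cxcl16 (2.18, SE 0.36) and the platelet factor Pf4 (2.78, SE 0.57). Cxcl1 read 3.98, 4.13 and 4.15 in Tg and 3.36, 3.48 and 3.32 in WT mice and did not pass (adjusted p = 0.529, but 0.0151 with the 6 GF arrays alone). Of 12 measured receptors 4 rose, and Cxcr1, a receptor for neutrophil chemokines, went furthest, with 8.18, 8.89 and 8.18 in Tg and 4.91, 5.37 and 5.48 in WT mice (3.16, SE 0.28, adjusted p = 8.1e-09).

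Proteases of the extracellular matrix formed the second list with a high median. Over all features 3.14% rose and 1.77% fell. Of 15 matrix metalloproteinases and inhibitors 8 rose and none fell, with a median of 1.19, and 7 rose in each of the fits without 1 mouse. Mmp12, the macrophage elastase, read 10.4, 10.4 and 10.6 in Tg and 5.69, 5.63 and 5.22 in WT mice (4.97, SE 0.44, adjusted p = 8.1e-09). Mmp14, a membrane-bound collagenase, read 6.5, 5.73 and 7.35 in Tg and 3.33, 3.32 and 3.35 in WT mice (3.19, SE 0.47, adjusted p = 2.97e-05). The tissue inhibitor Timp1 rose alongside these enzymes, by 4.31 (SE 0.50, adjusted p = 6.99e-07), and so did the membrane protease Adam8, by 3.61 (SE 0.50, adjusted p = 1.42e-05). Among factors of repair 6 of 19 rose and 2 fell, with a median of 0.09 (1 fell without Tg mouse 1, Tg mouse 2, WT mouse 1 or WT mouse 3, and none without Tg mouse 3 or WT mouse 2). Csf1, the growth factor on which macrophages depend, read 6.64, 7.10 and 7.73 in Tg and 3.43, 3.60 and 3.65 in WT mice (3.60, SE 0.36, adjusted p = 6.19e-08), and Hbegf, an epidermal growth factor receptor ligand, rose by 2.56 (SE 0.34, adjusted p = 5.46e-06).

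**Figure D3:**
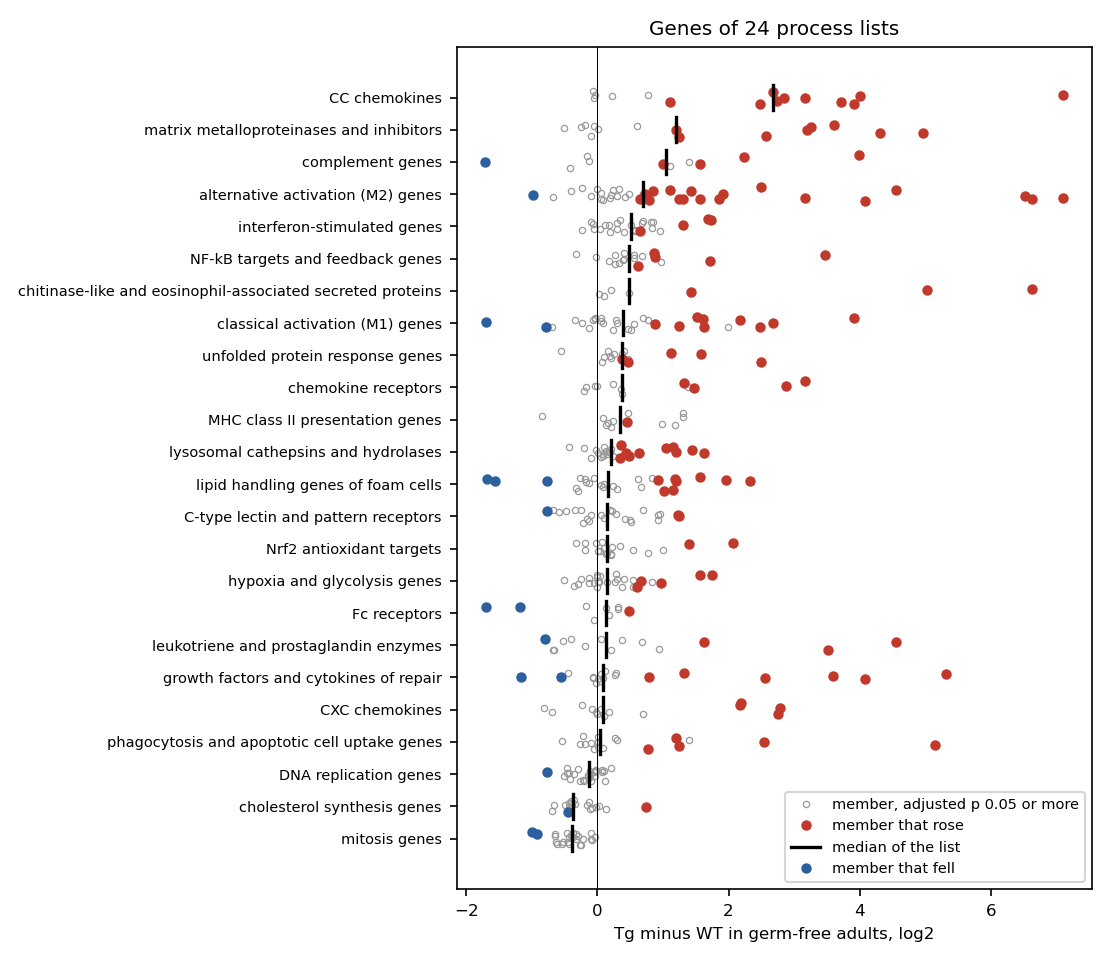
Tg minus WT difference in GF adults on the log2 scale (horizontal axis) for every measured gene of 24 process lists, sorted by list median (black bar), with genes that rose in red, genes that fell in blue and the rest as open grey circles. CC chemokines (median 2.67) and matrix metalloproteinases (1.19) head the lists, and cholesterol synthesis (-0.37) lies near the bottom.

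Lysosomal and lipid genes changed in part, where 3.14% of all features rose and 1.77% fell. Of 27 measured lysosomal genes 10 rose and none fell, 5 of them in each fit without 1 mouse (5 without Tg mouse 3, 5 without WT mouse 2 and 6 without WT mouse 3). Ctsk, the collagen-degrading cathepsin K, read 11.4, 11.4 and 11.5 in Tg and 9.79, 9.76 and 9.81 in WT mice (1.63, SE 0.29, adjusted p = 0.000337), and cathepsin L (Ctsl), Cd63, Gpnmb and Acp5 rose by 1.44, 1.20, 1.16 and 1.04. Of 26 measured genes of lipid handling 8 rose and 3 fell. Ch25h, which makes 25-hydroxycholesterol, read 10.4, 10.7 and 10.8 in Tg and 8.19, 8.49 and 8.23 in WT mice (2.33, SE 0.34, adjusted p = 2.75e-05). The fatty acid carrier Fabp4 (1.95, SE 0.36) and the lipid scavenger Cd36 (1.20, SE 0.15) rose as well. Cidec, a protein of lipid droplets, read 9.84, 9.27 and 8.14 in Tg and 10.6, 10.7 and 10.7 in WT mice, a fall of 1.57 that did not pass without Tg mouse 3 (-1.09, adjusted p = 0.106). Fabp1 fell by 1.68 on the same terms (-1.19, adjusted p = 0.292 without Tg mouse 3), nor did it pass without any 1 of the 3 WT mice (adjusted p = 0.0602 to 0.0844), and without Tg mouse 3 no gene of the list fell. The 20 measured genes of cholesterol synthesis had a median of -0.37, with 1 that rose and 1 that fell. None rose in any of the 6 fits without 1 mouse, and 1 fell without Tg mouse 1 and none in the other 5 fits.

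Single genes of further process lists also rose, where 3.14% of all features rose and 1.77% fell. The transporters Slc7a11 for cystine and Slc2a1 for glucose rose by 2.07 (SE 0.34) and 1.75 (SE 0.20), as did asparagine synthetase (Asns, 2.5, SE 0.31), the stress factor Atf3 (1.57, SE 0.28) and Tnip3, an inhibitor of NF-κB signaling (3.47, SE 0.37). Each of these 5 passed in all 6 fits without 1 mouse. Their lists were less firm: 5 of 27 hypoxia and glycolysis genes, 5 of 16 genes of the unfolded protein response and 5 of 18 NF-κB targets rose, and each of these counts was 2 without Tg mouse 3 or WT mouse 3 and 3 without WT mouse 2. Without WT mouse 1 they were 2, 2 and 3. The unfolded protein response count was 3 without Tg mouse 1 and 2 without Tg mouse 2, and the NF-κB count was 2 without Tg mouse 2. Pla2g7 and Alox15, enzymes of lipid mediators, rose by 3.51 (SE 0.52) and 4.56 (SE 0.69). Among complement genes 4 of 10 measured rose (2 without Tg mouse 3) and 1 fell, with C3ar1, a receptor for a complement fragment, at 7.23, 7.39 and 8.85 in Tg and 3.74, 3.60 and 4.17 in WT mice (3.98, SE 0.69, adjusted p = 0.000279). C5ar1, the receptor for another complement fragment, read 9.07, 8.44 and 7.05 in Tg and 10.0, 9.84 and 9.80 in WT mice, a fall of 1.71 (adjusted p = 0.00632) that did not pass without Tg mouse 3 (-1.14, adjusted p = 0.138) or with the 6 GF arrays alone (0.106).

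Of 25 measured interferon-stimulated genes, 4 rose (Oasl2, Rtp4, Usp18 and Oasl1) and none fell, where 3.14% of all features rose and 1.77% fell. No gene of the list passed without Tg mouse 3, and 1 passed without WT mouse 2. Without Tg mouse 3 the differences were 1.15 for Oasl2 (1.73 with it) and 1.24 for Rtp4 (1.69 with it). With all mice, every Tg array lay above every WT array in 13 of the 25, against 9.21% of all features. Usp18, which restrains interferon signaling, read 4.45, 3.90 and 5.65 in Tg and 3.33, 3.30 and 3.48 in WT mice, and its difference of 1.30 (adjusted p = 0.00806) was 0.81 without Tg mouse 3 (adjusted p = 0.177). The list mean was 5.04, 4.96 and 5.67 in Tg and 4.73, 4.64 and 4.71 in WT mice. Among genes of cell division, none of 26 mitosis genes rose and 2 fell, with a median of -0.39, where 1.77% of all features fell. Those 2, Anln and Kif11, did not pass without Tg mouse 3, WT mouse 1 or WT mouse 2, while 4 fell without Tg mouse 1. A second feature of Kif11 did not pass (-0.03, adjusted p = 0.991). With all mice, every Tg array lay below every WT array in 15 of the 26 mitosis genes, against 12.1% of all features.

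The largest losses were smaller than the largest gains, between 1.97 and 2.44 on the log2 scale for the 10 genes that fell most. Nt5e (CD73), which makes adenosine from AMP, read 6.03, 5.59 and 4.95 in Tg and 8.41, 8.04 and 7.42 in WT mice (-2.44, SE 0.32, adjusted p = 4.33e-06). Trem1, which amplifies inflammatory signals, read 6.85, 5.75 and 5.24 in Tg and 8.41, 7.89 and 7.75 in WT mice (-2.07, SE 0.33, adjusted p = 7.93e-05). Tlr5, the receptor for bacterial flagellin, read 6.11, 5.91 and 5.23 in Tg and 7.80, 7.71 and 7.93 in WT mice (-2.06, SE 0.23, adjusted p = 3.04e-07). Each was lowest in Tg mouse 3 and lower in every Tg mouse than in any WT mouse. Tnfsf13b, the B cell survival factor BAFF, fell by 2.08 (SE 0.20) to a level near background, and a second feature of the gene fell by 1.05 (adjusted p = 8.33e-05). Cpne5, a copine, Kazald1, a secreted protein with a Kazal-type domain, and Mcam (CD146), an adhesion molecule, fell by 2.36 (SE 0.34), 2.32 (SE 0.40) and 1.97 (SE 0.28). With the 6 GF arrays alone Cpne5 (adjusted p = 0.102) and Kazald1 (0.077) did not pass, nor did Gal, Coro6, Tppp3 and Fcgrt, which are given next (0.0528 to 0.103). Galanin (Gal) read 8.57, 7.26 and 5.75 in Tg and 9.20, 9.67 and 9.91 in WT mice, and its fall of 2.4 did not pass without Tg mouse 3 (-1.68, adjusted p = 0.0653). The same held for Coro6 (-2.17, and -1.47 with adjusted p = 0.121 without Tg mouse 3), while Tppp3 fell by 2.08 and did not pass without Tg mouse 2 (-1.66, adjusted p = 0.0617). Of the Fc receptors, Fcgrt, the receptor that recycles immunoglobulin G, fell by 1.19 (SE 0.21) beside Fcgr1. Among 26 measured alveolar macrophage markers 4 fell and 1, Fabp4, rose, where 1.77% of all features fell and 3.14% rose. None of these markers fell without Tg mouse 3, while 1 fell and 2 rose without WT mouse 3, and 2 fell without WT mouse 1 or WT mouse 2. Siglecf, a lectin that marks both alveolar macrophages and eosinophils, read 9.10, 8.90 and 9.01 in Tg and 9.87, 9.63 and 9.62 in WT mice and did not pass (-0.71, adjusted p = 0.0765). It passed with the 6 GF arrays alone (adjusted p = 0.0239), the 14 PND 42 arrays alone (0.0122), without the PND 0 arrays (0.0305), with array weights (0.027) and with the dim filter (0.0461).

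Markers of some other lavage cells moved with the genotype, where 3.14% of all features rose and 1.77% fell. In bulk samples a change in the number of cells of a type and a change in RNA per cell cannot be told apart. The study's cell counts of the purified fractions list eosinophils in every GF Tg sample and in no GF WT sample. They list neutrophils in some GF Tg samples and in no GF WT sample. Lymphocytes were counted in all GF samples, with shares that overlapped between the genotypes, the highest in a WT sample and the lowest in a Tg sample. The part of these cells in the results above was not tested. Of 10 measured eosinophil markers 6 rose, with a median of 2.38, and their mean was 6.74, 5.81 and 7.42 in Tg and 4.26, 4.15 and 4.24 in WT mice. Prg2, the major basic protein of eosinophil granules, read 6.81, 4.14 and 8.80 in Tg and 2.89, 2.85 and 2.96 in WT mice (3.68, SE 0.72, adjusted p = 0.00118), and Ccr3, the eotaxin receptor, read 6.53, 4.01 and 7.54 in Tg and 3.04, 3.28 and 3.13 in WT mice (2.87, SE 0.55, adjusted p = 0.00102). With the 6 GF arrays alone neither passed (adjusted p = 0.113 for each). Both were high in Tg mice 3 and 1 and low in Tg mouse 2, as was Alox15, with 8.29, 6.26 and 9.66 in Tg and 3.42, 3.46 and 3.65 in WT mice. Rnase2a and Ear6 varied less and were high in all 3 Tg mice, at 11.5 to 11.8 and at 9.24 to 9.69. The granule peroxidase Epx stayed near background, at 3.06, 3.44 and 3.41 in Tg and 3.27, 3.10 and 3.11 in WT mice, as did Prg3.

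Neutrophil markers split in a similar way. Of 22 measured, 4 rose and 1 fell, where 3.14% of all features rose and 1.77% fell. The list median was 0.18, and 9 of the markers were near background in all 6 arrays. S100a9, a calcium-binding protein of granulocytes and monocytes, read 8.59, 7.25 and 9.47 in Tg and 3.00, 3.43 and 3.10 in WT mice (5.26, SE 0.93, adjusted p = 0.000377), and its partner S100a8 read 9.84, 9.45 and 10.2 in Tg and 7.48, 7.49 and 7.62 in WT mice (2.29, SE 0.36, adjusted p = 7.16e-05). S100a8, S100a9 and Retnlg had the order of Prg2 and Ccr3, lowest in Tg mouse 2. The listed granule genes Elane, Mpo, Camp, Ctsg and Prtn3 were near background in both genotypes. Csf3r, the receptor for granulocyte colony-stimulating factor, fell by 1.44 (SE 0.31, adjusted p = 0.00385). Ly6g, the marker used for depletion, was not analysed here.

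Of 19 measured markers of T cells and innate lymphoid cells 10 rose and none fell, with a median of 0.86 (6 rose without Tg mouse 3), and their mean was 4.65, 4.94 and 5.33 in Tg and 3.94, 3.83 and 3.89 in WT mice. Il7r, the receptor chain for interleukin-7, read 8.85, 9.62 and 9.94 in Tg and 4.87, 4.07 and 4.59 in WT mice (4.96, SE 0.46, adjusted p = 2.28e-08), and Cd3e, a chain of the T cell receptor complex, read 4.48, 4.69 and 5.32 in Tg and 3.02, 3.26 and 3.07 in WT mice (1.71, SE 0.30, adjusted p = 0.00031). Both were lowest in Tg mouse 1, unlike the granulocyte markers above. Markers of B and plasma cells rose in 2 of 13 (median 0.07) and those of natural killer cells in 1 of 11 (median 0.36), and none fell. These counts are so small that no change of these cells is read from them. Dendritic cell markers rose in 7 of 19 (3 without Tg mouse 3 and 4 without WT mouse 2), among them Ccl17, Ccl22 and Ccr7 (1.48, SE 0.27), and monocyte markers in 5 of 22 (2 without Tg mouse 3 and 3 without WT mouse 1 or WT mouse 3), led by Itgam. Among the monocyte markers 1 fell, and none did without Tg mouse 3. Airway secretory genes rose in 5 of 18 (3 without Tg mouse 2), and 1 fell (none without Tg mouse 3 or WT mouse 3). Scgb3a1 rose by 2.08 (SE 0.34) and Reg3g by 2.30 (SE 0.37). Scgb1a1, the club cell protein, read 9.09, 10.3 and 9.21 in Tg and 7.61, 7.92 and 7.24 in WT mice. Its rise of 1.96 (adjusted p = 0.0155) did not pass without Tg mouse 2 (1.56, adjusted p = 0.119) or WT mouse 3 (1.78, adjusted p = 0.0797). No marker of fibroblasts and none of ciliated cells rose, where 3.14% of all features did. No fibroblast marker fell, and 1 ciliated marker, Tppp3, fell (none without Tg mouse 2), where 1.77% of all features fell. Of 16 fibroblast and 18 ciliated markers measured, 15 and 14 were near background in all 6 arrays.

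**Figure D4:**
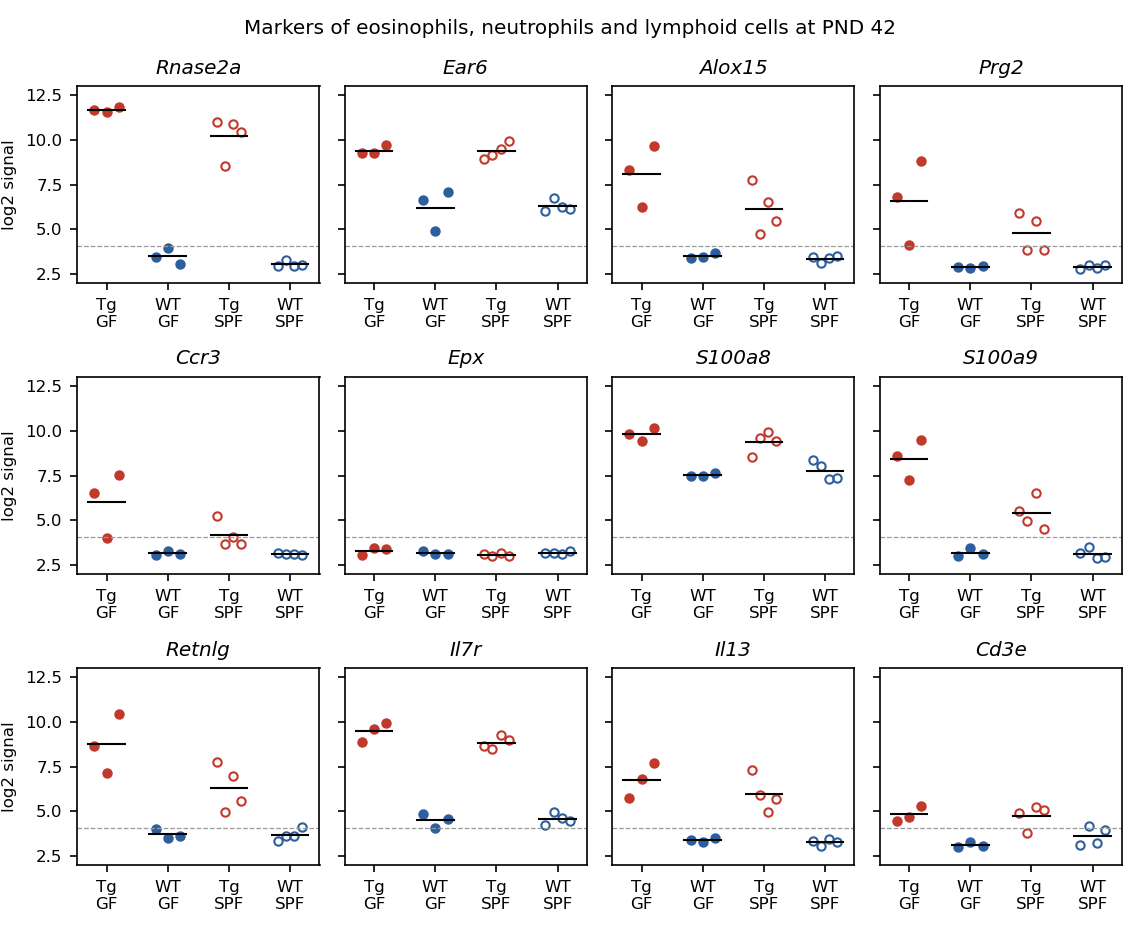
Log2 signal in each PND 42 mouse for 12 genes used as markers of eosinophils (Rnase2a to Epx), neutrophils (S100a8 to Retnlg) and lymphoid cells (Il7r to Cd3e), with Tg in red left of WT in blue, filled points for GF and open points for SPF mice, bars for group means and a dashed line at the highest array median, 4.06. The signals come from bulk samples, so the cell that made each transcript is not known. All but Epx are higher in every GF Tg mouse than in any GF WT mouse, and Prg2 and Ccr3 span 4.14 to 8.80 and 4.01 to 7.54 among the GF Tg mice.

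The genotype difference in GF mice was then set beside that in SPF mice of the same age, which share no arrays with it. In SPF mice 470 features were called (1.62%), 364 rises (1.26%) and 106 falls (0.366%), and 4.49% passed the adjusted p alone (2.72% higher and 1.77% lower). Of the 535 GF rises 311 were also called in SPF mice, which is 58.1% of the GF rises and 85.4% of the SPF rises, and of the 115 GF falls 61 were shared, 53% of the GF falls and 57.5% of the SPF falls. No feature was called in opposite directions. Over all features the changes in the 2 housings had a Pearson correlation of 0.793 and a Spearman correlation of 0.486, which is across features and not across mice. Among the 364 rises called in SPF mice, 216 were larger in GF mice, with medians of 1.74 in GF and 1.56 in SPF mice. Among the 106 falls called in SPF mice, 41 were larger in GF mice. Of the 20 largest GF rises 18 also passed the adjusted p in SPF mice, and the exceptions were Ocstamp (4.67 in GF, 1.14 in SPF) and S100a9 (5.26 in GF, 2.24 in SPF).

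The test of the difference between the housings singled out 1 feature of 28940 (0.00346%), with a larger difference in GF mice, and none in the other direction (0%), while 908 had an unadjusted p under 0.05 (3.14%). Ccl8, a chemokine (MCP-2) that in mice acts through CCR8 and draws type 2 helper T cells, read 7.25, 5.50 and 7.94 in GF Tg mice and 2.77, 2.93 and 2.99 in GF WT mice, a rise of 4.00 (SE 0.35). In SPF mice it read 4.69, 3.20, 3.84 and 3.19 in Tg and 2.80, 3.11, 2.93 and 3.18 in WT mice, a difference of 0.73 that did not pass (adjusted p = 0.221). The lowest GF Tg mouse was above the highest SPF Tg mouse, and WT mice of both housings were near background. The genotype effect was larger by 3.27 in GF mice (95% confidence interval 2.34 to 4.21, adjusted p = 0.00183). This interval and p rest on a variance pooled over all groups. The standard deviation of Ccl8 was 1.26 in GF Tg and 0.12 in GF WT mice, so they do not describe the spread among the GF Tg mice. With the 14 PND 42 arrays alone the same difference did not pass (adjusted p = 0.441), and it was 3.26 with the Xist level as a term (adjusted p = 0.00219). The split of Xist patterns is the same in both genotypes, so the Xist term could move this difference little. All SPF mice had the male Xist pattern and 4 of the 6 GF mice did not, so housing and sex cannot be told apart.

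Of the other CC chemokine genes of this cluster on chromosome 11, the difference between housings was 2.31 for Ccl7, 2.24 for Ccl12, 1.48 for Ccl2 and -0.01 for Ccl11, and none of them passed (adjusted p = 1 for each). Ccl12 (MCP-5), a further ligand of CCR2, read 6.85, 5.70 and 7.67 in GF Tg and 4.30, 3.89 and 3.82 in GF WT mice, against 4.40, 3.68, 4.81 and 3.55 in SPF Tg and 3.51, 3.81, 3.77 and 3.36 in SPF WT mice. Ccl8 and Ccl12 were both lowest in Tg mouse 2 among the GF Tg mice, the order of the eosinophil markers, while Ccl2 and Ccl7 were lowest in Tg mouse 1. The promoters of Ccl8 and Ccl12, 13340 bases apart, are shown as neighbors of one cluster with unequal test results, with the TATA box TATAAA in capitals, from RefSeq (GRCm38.p6, + strand, 250 bases before to 50 after the start) at chr11:82114935-82115234 for Ccl8 and chr11:82101595-82101894 for Ccl12.
Ccl8: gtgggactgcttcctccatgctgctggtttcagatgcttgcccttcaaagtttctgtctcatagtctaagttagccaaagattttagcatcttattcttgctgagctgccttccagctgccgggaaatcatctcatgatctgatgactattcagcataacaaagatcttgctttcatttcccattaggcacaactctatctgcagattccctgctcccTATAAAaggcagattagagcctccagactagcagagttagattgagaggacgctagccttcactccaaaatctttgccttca
Ccl12: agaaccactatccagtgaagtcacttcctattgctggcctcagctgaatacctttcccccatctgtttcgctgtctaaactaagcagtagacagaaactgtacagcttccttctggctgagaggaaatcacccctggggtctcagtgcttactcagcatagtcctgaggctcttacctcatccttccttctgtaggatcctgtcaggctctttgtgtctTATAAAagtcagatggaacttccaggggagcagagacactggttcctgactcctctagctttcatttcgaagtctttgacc
TATAAA, searched on both strands, begins 32 bases before the start in Ccl8 and 31 bases before it in Ccl12, and 3821 of the 27025 promoters hold it (14.1%).

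The other genes with the smallest p in the test between housings did not pass after adjustment. Abca1, which exports cholesterol from macrophages, read 6.41, 6.91 and 6.79 in GF Tg and 5.67, 6.01 and 5.39 in GF WT mice, a rise of 1.01 (SE 0.20, adjusted p = 0.00165). In SPF mice it read 6.61, 6.08, 6.27 and 5.93 in Tg and 6.47, 6.91, 6.61 and 6.83 in WT mice, a difference of -0.48 (adjusted p = 0.14). The difference between the housings was 1.5 (95% confidence interval 0.95 to 2.05, adjusted p = 0.0729), and it passed with the Xist level as a term (1.51, adjusted p = 0.0319), with array weights (adjusted p = 0.0266), with the dim filter (0.0414), without Tg mouse 1 (1.64, adjusted p = 0.0199) and without WT mouse 2 (1.66, adjusted p = 0.0318). The rise in GF mice did not pass without mouse 3 of both genotypes (0.82, adjusted p = 0.105). Mmp13, an interstitial collagenase, rose by 3.26 in GF mice and by 1.26 in SPF mice, a difference that passed without Tg mouse 1 (2.75, adjusted p = 3.44e-05). In the other direction, Sox7, a transcription factor, had differences of 1.81 in GF and 3.19 in SPF mice, and Hsd17b7, an enzyme of cholesterol synthesis, -0.69 and 0.81. For both lists with the highest medians in GF mice the SPF median was lower, 0.96 against 2.67 for CC chemokines and 0.23 against 1.19 for matrix metalloproteinases, without a test of that difference. In each list some members showed the reverse: Ccl3 rose by 2.67 in GF and 3.59 in SPF mice.

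**Figure D5:**
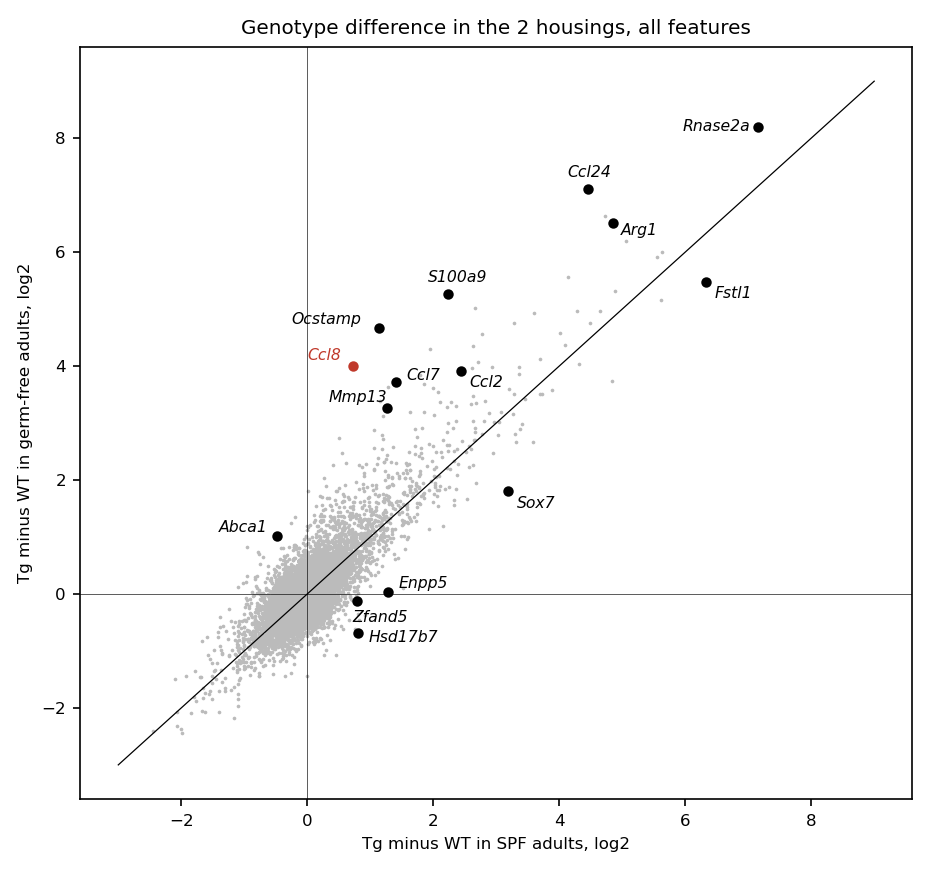
Tg minus WT difference on the log2 scale in GF adults (vertical axis, 3 mice a group) against that in SPF adults (horizontal axis, 4 mice a group) for all 28940 features, with the line of equality and named genes as larger points. Ccl8, in red, is the only feature whose difference between housings passed the adjusted p (4.00 in GF, 0.73 in SPF), and most strong rises lie near or above the line.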

How the data were processed

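Bronchoalveolar macrophage RNA was amplified and measured on 36 whole-transcript arrays (Affymetrix Mouse Gene 1.0 ST). Per the labels, the authors deposited log2 values made with RMA in Partek 6.5; the methods name a later release of that program and describe background adjustment, quantile normalization and median polish; no scanner files were used here. Arrays carry no read depth, so their number limits the precision. Of 35556 features, 6616 presumed controls without gene annotation were left out and 28940 were tested; 21218 had exactly 1 symbol in the platform annotation, 1881 several and 5841 none. For a gene with several features the one of highest mean over all arrays was used, and no column was left unused.

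Arrays were grouped by genotype, age and housing (10 groups). A model with 1 mean per group was fitted to all 36 arrays with limma 3.58.1 in R 4.3.3, with 26 residual degrees of freedom, and 3 contrasts were drawn: Tg minus WT in GF mice, the same in SPF mice, and their difference. All p-values are two-sided and were adjusted over the tested features by the Benjamini-Hochberg method. An exact test of 3 against 3 cannot give a p below 0.1, so calls rest on the pooled variance.

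Genes were named by rule: the 20 largest rises and 10 largest falls with 1 plain symbol, up to 5 members of a described list that passed, the 5 of each sign with the smallest p between housings, and 40 fixed genes. The list members Camp, Ccl11, Ccl12, Ctsg, Elane, Epx, Flt1, Mpo, Prg3 and Prtn3 and the Y-linked Eif2s3y were named after their values were seen. The members and lists were chosen with earlier results of these data known. Of 39 lists (24 of processes, 15 of cell types) counts and medians are given without a set test. The fitting script was tested on simulated data. Alternatives covered the arrays in the fit, array weights, normalization, variance prior, filters, fold and p limits, the replicate number as a block, and each GF mouse left out; 3 were added after the data were seen (full separation of the groups, the Xist level as a term, and mouse 3 of both genotypes left out).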

Additional observations from a re-analysis of the deposited data

Results flagged for a closer look

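Ccl8 was set apart because its genotype effect differed between the housings by the interaction contrast of limma: Tg minus WT was 4.00 in GF mice and 0.73 in SPF mice, a difference of 3.27 on the log2 scale (SE 0.46, adjusted p = 0.00183), and all 3 GF Tg mice lay above all 4 SPF Tg mice. Without 1 of the GF mice the adjusted p of this difference ranged between 3.57e-08 and 0.014, but the difference did not pass with the 14 PND 42 arrays alone (adjusted p = 0.441) or with the replicate number as a block (0.0544). Grm6, a glutamate receptor gene named through the same contrast, had 1 mouse far from the other 3 in the SPF Tg group, Tg mouse 1 at 3.49 with the others at 3.29, all near background. Dixon's test was applied to the groups of 4 SPF mice for 10 genes, and chance flags about 1 in 20 groups.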

How the results depend on the processing

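The GF contrast gave 600 to 669 calls, against 650, with the replicate number as a block (600), array weights (669), a second quantile normalization (628), median centring (616, of which 487 rose and 129 fell), a trended robust variance prior (662), no moderation (610) and a filter on dim features (651), and 575 with 1 feature per gene. Without a fold limit 1422 features passed in GF mice (910 rises and 512 falls) and 1299 in SPF mice. With the 6 GF arrays alone 453 were called and the falls were 57, and the named genes Gal, Cpne5, Kazald1, Coro6, Tppp3, Fabp1, Cidec, Fcgr1, Fcgrt, Kif11, Ccr3, Prg2, Oasl1, Oasl2, Rtp4 and Usp18 did not pass (adjusted p = 0.0519 to 0.15). Leaving out 1 GF mouse gave 423 calls (without Tg mouse 3) to 769 (without Tg mouse 1), with 363 to 599 rises and 60 to 170 falls. Without mouse 3 of both genotypes, an alternative chosen after seeing the data, the counts were 374, 317 and 57, and among named genes that passed in each fit without 1 mouse Ccl17 (adjusted p = 0.0971), Socs3 (0.0606), Pf4 (0.0556), Cxcl3 (0.172), Csf3r (0.0973), Ccr3 (0.077), Prg2 (0.076) and Abca1 (0.105) did not pass. The count for the difference between housings, 1, was 0 with the 14 PND 42 arrays and 0 with the replicate block, 2 with array weights, with the dim filter, with 1 feature per gene, with the Xist term and without mouse 3 of both genotypes, and 1 to 4 when 1 GF mouse was left out. The difference for Ccl8 had an adjusted p of 0.441 with the 14 arrays and 0.0544 with the replicate block. The labels do not say that replicate numbers pair the mice, and deviations of same-numbered GF mice correlated at 0.0156, 0.0124 and 0.0931. The cause of these changes was not tested. No result changed direction with its call in the alternatives run. Genes near background carry understated folds.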
